A study of Mus musculus with 29 samples.

Results

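The fibroblast growth factor (Fgf) genes, their receptors and the Sprouty and Spred feedback genes were followed through a genome segmentation by monoubiquitinated histone H2A (H2AK119ub, here H2Aub). Members were chosen by symbol, with earlier results of these data known. They were protein-coding genes on chromosomes 1 to 19 named Fgf plus a number, Fgfr1 to Fgfr4, Fgfrl1, Spry1 to Spry4 or Spred1 to Spred3. The rule found 31 members among 20558 protein-coding genes, on 13 chromosomes. They comprised 17 secreted ligands, 3 intracellular Fgf homologous factors, 5 receptors, 3 Sprouty and 3 Spred genes. Fgf13, Fgf16 and Spry3, which lie on the X chromosome, were not analysed here.

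Secreted Fgf ligands bind receptor tyrosine kinases at the cell surface, together with heparan sulphate or a Klotho coreceptor, and the receptors signal mainly through Ras, Raf, Mek and Erk. Sprouty and Spred proteins are induced by or act on this cascade and dampen it. In the mouse blastocyst, Fgf4 from epiblast precursors drives their neighbours into primitive endoderm, and later Fgf8 is needed for cell movement at gastrulation. H2Aub is laid down by Polycomb repressive complex 1 and is typically found at developmental genes that are off.

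The study profiled H2Aub in 24 libraries and H3K27me3, the mark of Polycomb repressive complex 2, in 5 libraries by CUT&RUN, in which a tethered nuclease releases the DNA around a mark. The H2Aub libraries lacking maternal Eed (6, from Gdf9-Eed (fl/fl) mothers) came from germinal vesicle oocytes, 4-cell embryos and morulae, Eed being a core subunit of Polycomb repressive complex 2 and Gdf9 an oocyte gene. At the 4-cell stage 6 libraries, with H2Aub or H3K27me3, came from PR-DUB (OE) and PR-DUB (CTR) embryos, PR-DUB being a deubiquitinase of H2A. Wild-type H2Aub libraries numbered 16 over 8 stages from germinal vesicle oocyte to E6.5 epiblast, on B6/129 mixed, B6/DBA or B6/DBA x PWK and B6/129 mixed x PWK backgrounds, some of them labelled Eed (fl/fl), and H3K27me3 was also measured once in wild-type oocytes at the germinal vesicle stage. The labels do not tie the segmentation to particular libraries.

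The segmentation gives each stretch of chromosomes 1 to 19 an H2Aub type from 1 to 5, with no key, no level and no value for any library. Read depth is therefore unknown, no stage or genotype could be compared, and no test between samples was possible. Each gene was given the type that covered most of its window, the gene body with 20 kb on each side. A run of 5 kb bins of 1 type is called a stretch, and positions are counted from 1 on mm10. Counts by type are set beside those of all protein-coding genes as a description, since the members are named genes of 1 segmentation and not samples.

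The 31 Fgf ligand, receptor and feedback genes lay more often in type 4 and less often in type 1 than all protein-coding genes. Type 3 held the most members, at a share nearer to that of all protein-coding genes. The higher type 4 share did not extend to the 41 other pathway genes described below, of which 9.76% took type 4. Of these 41 genes, 46.3% took type 3 and 26.8% type 1, against 35.3% and 36.6% of all protein-coding genes. By most of the window, 13 of 31 members took type 3 (41.9%, against 35.3% of all protein-coding genes), 9 took type 4 (29.0%, against 13.8%), 4 took type 5 (12.9%, against 9.62%), 3 took type 1 (9.68%, against 36.6%) and 2 took type 2 (6.45%, against 4.6%). Some type 4 sequence was present in 14 of 31 member windows (45.2%), against 28.3% of the windows of all protein-coding genes. Over the summed windows, in which Fgf12 and Fgf14 weigh most, type 4 took 14.3% for the members and 14.1% for all protein-coding genes, and type 1 took 15.1% for the members and 34.4% for all protein-coding genes. With each gene given equal weight, a setting chosen after seeing the data, a member window averaged 24.4% type 4 and 12.6% type 1, and the window of a protein-coding gene averaged 13.9% type 4 and 35.1% type 1. The window was wholly of 1 type for 8 of 31 members (25.8%, against 34.4% of all protein-coding genes). The secreted ligands held 7 of the 9 members in type 4 and 0 of the 3 in type 1, and all 3 in type 1 were Fgfr1, Spred1 and Spred2. Some of these 7 ligands share a type 4 stretch, as described below, and are not independent. With members within 100 kb of each other counted once, type 4 held 6 of 28.

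**Figure D1:**
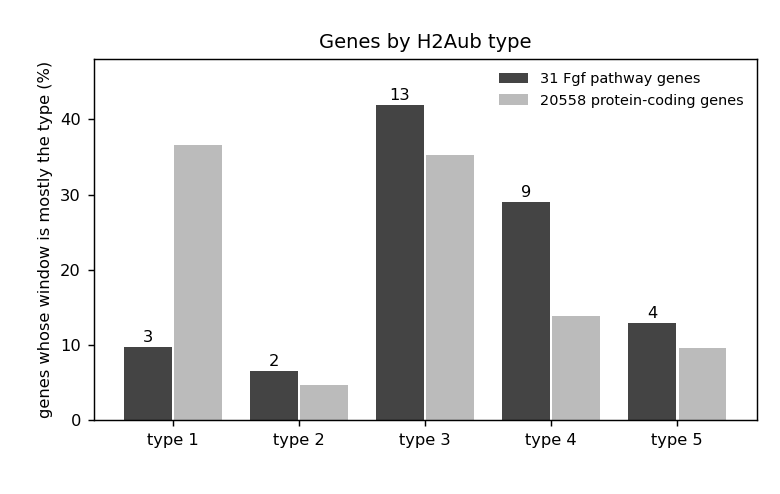
Genes whose window is mostly each H2Aub type, as a percentage of the 31 Fgf pathway genes (dark bars, with the number of genes above) and of the 20558 protein-coding genes (pale bars). Type 4 held 29.0% of the members and 13.8% of all genes, and type 1 held 9.68% of the members and 36.6% of all genes.

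**Figure D2:**
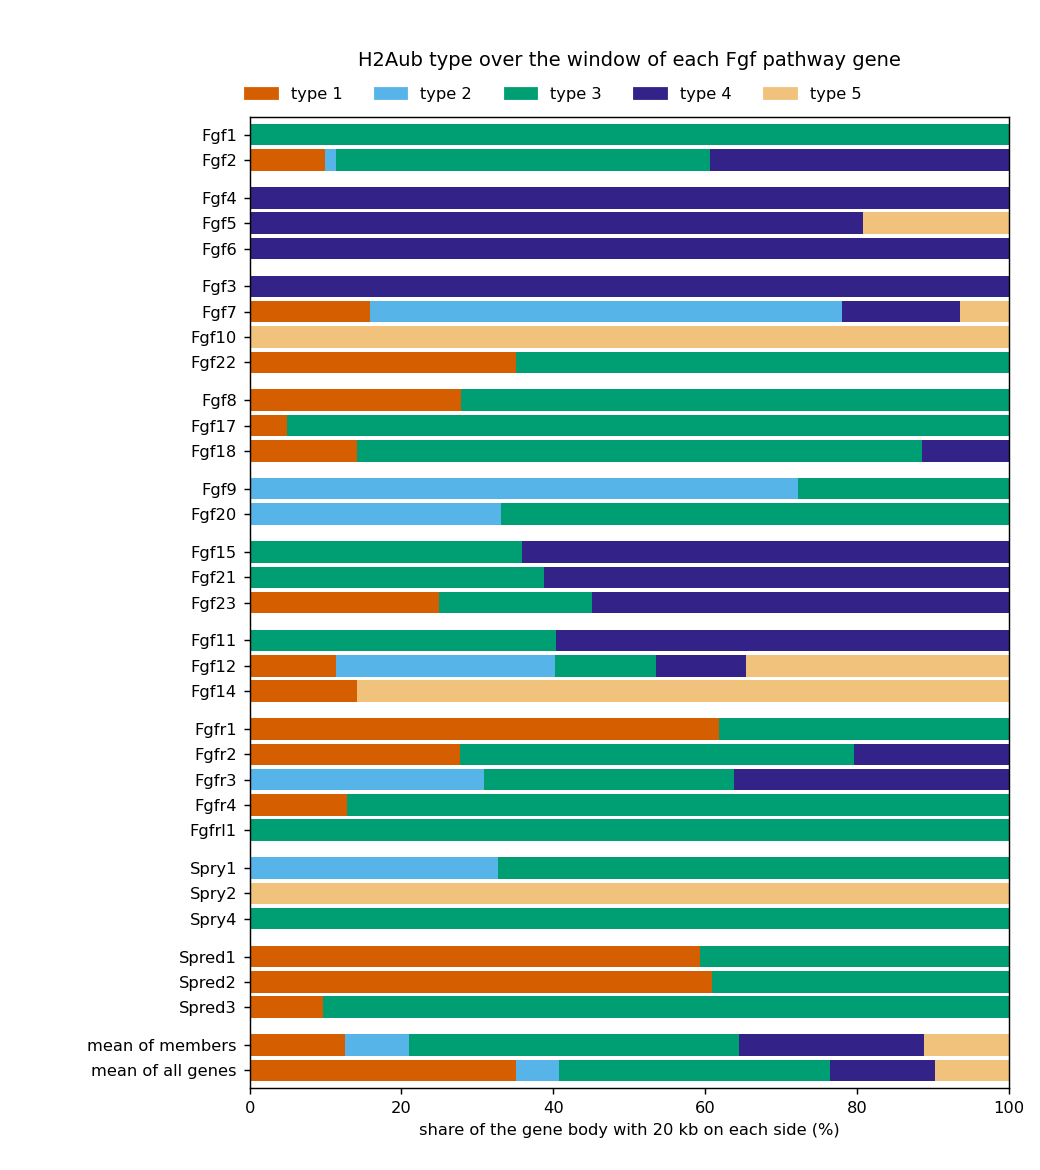
Share of each window (gene body with 20 kb on each side, in percent) in types 1 to 5, for each member and, in the lowest 2 rows, averaged over the 31 members and over all protein-coding genes. Fgf3, Fgf4 and Fgf6 are wholly type 4, Fgf1, Fgfrl1 and Spry4 wholly type 3, and Fgf10 and Spry2 wholly type 5.

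All 3 genes of the FGF4 subfamily took type 4, with a mean of 93.6% of the window, against 13.9% over all protein-coding genes. Fgf4, the blastocyst ligand, and Fgf3, which acts in inner ear development, were wholly type 4 with their flanks and lay 18.04 kb apart. Fgf15, an intestinal hormone that lowers bile acid synthesis in the liver, followed 31.3 kb beyond Fgf4. All 3 shared a type 4 stretch of 245 kb on chromosome 7 (144660001 to 144905000), with type 3 on both sides. Of 4751 type 4 stretches, 4.57% were at least as long, and the median was 40 kb. The windows of Fgf4 overlapped those of Fgf3 and Fgf15, so these 3 genes are not independent. The Fgf15 body was wholly type 4, and its window was 64.1% type 4 and 35.9% type 3 because the stretch ended 4.05 kb past the gene.

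The promoters of Fgf4 (chr7:144861136-144861435, plus strand) and Fgf3 (chr7:144838362-144838661, plus strand) lie in this same stretch and differ in CG content. Fgf4 is shown because it was picked by name, and Fgf3 as the first by symbol of the 3 members wholly in type 4. All promoter sequences are from RefSeq on GRCm38.p6 and run 5′ to 3′ over 300 bases, 250 before and 50 after the transcription start, with every CG dinucleotide in capitals. The sequence CG reads the same on both strands, and 95.0% of the promoters of protein-coding genes in the table hold at least 1.
Fgf4: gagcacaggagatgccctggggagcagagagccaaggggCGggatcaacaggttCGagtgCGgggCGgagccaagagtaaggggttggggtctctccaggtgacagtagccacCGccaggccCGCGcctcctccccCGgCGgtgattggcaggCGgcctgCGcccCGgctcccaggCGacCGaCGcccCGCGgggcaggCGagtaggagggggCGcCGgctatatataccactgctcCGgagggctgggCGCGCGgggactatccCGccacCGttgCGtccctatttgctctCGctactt
Fgf3: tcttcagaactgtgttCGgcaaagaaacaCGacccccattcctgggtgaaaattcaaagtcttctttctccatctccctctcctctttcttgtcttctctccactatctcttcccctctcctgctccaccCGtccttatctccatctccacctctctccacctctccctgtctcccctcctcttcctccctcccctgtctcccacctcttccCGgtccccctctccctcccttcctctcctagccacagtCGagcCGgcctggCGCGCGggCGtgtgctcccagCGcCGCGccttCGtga
Fgf4 held 28 CG, a count that 16.9% of promoters starting in type 4 reached, and Fgf3 held 14, which 44.5% reached.

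Fgf6, a ligand of muscle repair, and Fgf23, the bone hormone that lowers blood phosphate, lay 48.2 kb apart on chromosome 6 in an 85 kb type 4 stretch (126995001 to 127080000), again between type 3 stretches. Fgf6 was wholly type 4 with its flanks. Fgf23 crossed the higher border of the stretch: its start lay in type 4, 75.6% of its body was type 4 and 24.4% type 3, and its window also held 24.9% type 1. Fgf5, a ligand of the epiblast and a brake on hair growth, lay wholly inside a 65 kb type 4 stretch on chromosome 5 (98220001 to 98285000). That stretch had type 5 on both sides, as 24.4% of type 4 stretches did, whereas 33.9% lay between type 3 stretches. Fgf21, the liver hormone of fasting, lay in a 45 kb type 4 stretch on chromosome 7 (45610001 to 45655000) and had a window 61.3% type 4 and 38.7% type 3. All 3 endocrine ligands were therefore type 4, with 54.9% to 64.1% of the window in it. With 50 kb on each side, however, Fgf21 was 44.3% type 4 and took another type.

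Fgf11, an intracellular homologous factor, and Fgfr3, a receptor that restrains bone growth, were the members in type 4 that are not secreted ligands. Fgf11 lay wholly in a 65 kb type 4 stretch on chromosome 11 (69795001 to 69860000), in a window shared with 6 other protein-coding genes, the most for any member. In Fgfr3 the main type had the narrowest lead of all 31 members, 3.12 percentage points. Its window was 36.1% type 4, 33.0% type 3 and 30.8% type 2, with both of its listed starts inside a type 4 stretch of only 20 kb (chromosome 5, 33710001 to 33730000). The 9 members in type 4 thus lay in 6 separate stretches, 5 of them between type 3 stretches and the Fgf5 stretch between type 5 stretches. Their lengths were not compared with those of all genes in type 4. The 9 were short genes, with a median length of 6.88 kb, against 15.1 kb over all members and 17.6 kb over all protein-coding genes. Around them type 4 took 69.1% of the first 20 kb outside the gene, 50.8% from 20 to 50 kb, 36.9% from 50 to 100 kb, 43.1% from 100 to 200 kb and 24.03% from 200 to 500 kb. Around all 2840 genes in type 4 these means were 72.1%, 52.1%, 40.8%, 32.55% and 27.3% in the same order, so the ring from 100 to 200 kb was the one in which the members' mean was higher. In that ring Fgf3, Fgf4 and Fgf15 are not independent. Their shared type 4 stretch reached 178.6, 201.4 and 236.5 kb below their lower ends, so it was counted for each of them.

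The FGF8 subfamily, whose members pattern the gastrula, midbrain and limb, lay in type 3, which held 35.3% of all protein-coding genes. The window was 72.1% type 3 for Fgf8, 95.1% for Fgf17 and 74.4% for Fgf18, and the 3 gene bodies were wholly type 3. Among all protein-coding genes, 68.7% had a body wholly of 1 type. Type 1 made up the rest for Fgf8 (27.9%) and Fgf17 (4.92%), and Fgf18 had 14.2% type 1 and 11.4% type 4. Fgf8 lay near the end of a 185 kb type 3 stretch on chromosome 19 (45565001 to 45750000), which only 3.82% of type 3 stretches matched or exceeded in length. Fgf18 had 47 CG in its promoter, the most of the members with a listed promoter, a count reached by 2.43% of promoters that start in type 3.

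Fgf1 and Fgf2 form the FGF1 subfamily, which leaves cells without a signal peptide. Fgf1 lay with the feedback gene Spry4 in a 505 kb type 3 stretch on chromosome 18 (38470001 to 38975000). Both windows and the 237.3 kb between the genes were wholly type 3. Of 9095 type 3 stretches, 8 were at least that long, and the median was 30 kb. Fgf2 also had a Sprouty gene nearby, Spry1, at a distance of 229.8 kb on chromosome 3, yet the sequence between them was 71.8% type 1. The Fgf2 body alternated between 2 type 4 and 2 type 3 stretches, each of 20 or 30 kb, and its start lay in type 4. Its window was 49.2% type 3 and 39.4% type 4. Spry1 itself lay wholly in a 65 kb type 3 stretch with type 2 on its higher side, and 67.3% of its window was type 3.

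The FGF7 subfamily, ligands that mesenchyme and neurons send to epithelia and synapses, was spread over 4 types. Fgf3 was type 4, as above. Fgf10, which starts lung and limb buds, lay wholly in type 5 with its flanks, inside a 245 kb stretch on chromosome 13 (118610001 to 118855000) bordered by types 3 and 2. Only 1.51% of type 5 stretches had that pair of neighbours. Fgf7, keratinocyte growth factor, was 97.9% type 2 over its body, and its window ran from type 1 through types 2 and 4 to type 5. Fgf22, which organises synapses in the brain, lay wholly in a type 1 stretch of 15 kb between type 3 stretches of 55 and 50 kb. Its window was 64.9% type 3 and 35.1% type 1, so the body and the window took different types.

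In the FGF9 subfamily, Fgf9 of lung and testis and Fgf20 of inner ear and kidney both held types 2 and 3 and no other. Fgf9 was 72.2% type 2 over its window, but its listed start lay in a 15 kb type 3 stretch (chromosome 14, 58065001 to 58080000) between type 2 stretches of 15 and 45 kb. Fgf20 was 66.9% type 3 and 33.1% type 2, with the whole body in type 3. The promoters of Fgf9 (chr14:58072436-58072735, plus strand) and Fgf10 (chr13:118714449-118714748, plus strand) are shown for type 2, as the member with the largest share of the window in it, and for type 5, in which Fgf10 and Spry2 were both wholly contained. They may be set beside the CG counts of Fgf4 and Fgf3.
Fgf9: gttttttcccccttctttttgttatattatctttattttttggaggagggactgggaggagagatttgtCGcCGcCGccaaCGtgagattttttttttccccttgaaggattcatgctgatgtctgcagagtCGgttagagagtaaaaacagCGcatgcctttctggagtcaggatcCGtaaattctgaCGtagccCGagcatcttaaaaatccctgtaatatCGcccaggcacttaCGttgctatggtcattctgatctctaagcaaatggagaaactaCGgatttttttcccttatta
Fgf10: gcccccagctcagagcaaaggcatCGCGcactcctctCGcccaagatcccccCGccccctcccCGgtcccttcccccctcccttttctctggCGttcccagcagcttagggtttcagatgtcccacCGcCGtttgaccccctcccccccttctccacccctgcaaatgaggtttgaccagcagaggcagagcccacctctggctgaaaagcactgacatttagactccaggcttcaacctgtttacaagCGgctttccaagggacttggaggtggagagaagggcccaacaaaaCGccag
They held 12 and 10 CG, fewer than Fgf4. Fgf9 starts in type 3, where 64.1% of promoters reached its count. Fgf10 starts in type 5, where 21.8% did.

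Of the 5 receptors, 3 took type 3, and their windows averaged 62.1% type 3, against 35.6% over all protein-coding genes. With 50 kb on each side Fgfr2 took another type. Fgfrl1, a receptor without the kinase domain, was wholly type 3 with its flanks, and Fgfr4, the liver receptor for Fgf15, was 87.2% type 3. Fgfr1, a receptor of the early epiblast, was 61.9% type 1 and 38.1% type 3. In Fgfr1 a 60 kb type 1 stretch covered the higher end of the gene and a 520 kb type 3 stretch the lower end. Fgfr2, which with Fgfr1 receives Fgf4 in primitive endoderm, had 5 stretches along its body, alternating between types 3 and 1. Types 3 and 1 took 61.7% and 38.3% of the Fgfr2 body, and type 4 stretches of 190 and 60 kb stood just outside both ends of the gene. The Fgfr2 start lay in type 3, 3.19 kb from the 60 kb type 4 stretch. Its listed promoter (chr7:130266759-130267058, minus strand) is shown because Fgfr2 was picked by name. It had the fewest CG of the members with a listed promoter, 4, a count that 87.9% of promoters starting in type 3 reached.
Fgfr2: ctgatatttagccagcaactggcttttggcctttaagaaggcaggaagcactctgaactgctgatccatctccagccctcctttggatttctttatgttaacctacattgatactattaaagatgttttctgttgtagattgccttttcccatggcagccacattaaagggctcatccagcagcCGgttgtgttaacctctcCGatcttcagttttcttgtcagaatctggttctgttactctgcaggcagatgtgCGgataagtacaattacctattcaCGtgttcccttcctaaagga

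None of the 6 feedback genes had type 4 in the window, which 28.3% of all protein-coding genes had. Of 6 Sprouty and Spred genes, 3 were type 3 (Spry1, Spry4 and Spred3), 2 were type 1 and 1 was type 5. Over all protein-coding genes these types held 35.3%, 36.6% and 9.62%, in the same order. Spred1 and Spred2, inhibitors that bring neurofibromin to Ras, had the same arrangement: the start lay in type 3 and most of the body in type 1. The Spred1 body was 93.6% type 1, in a 60 kb stretch that began 3.93 kb past the start. The Spred2 body was 74.3% type 1, in an 85 kb stretch that began 25.6 kb past the start. Both type 1 stretches lay between type 3 stretches. Among all protein-coding genes with a listed start and a body mostly in type 1, 16.9% started in type 3, and among those at least 50 kb long, as both Spred genes are, 31.0% did. Spred3 was 90.3% type 3.

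Spry2, which limits Erk signalling in lung and inner ear, was the feedback gene in type 5. It lay wholly, with its flanks, in a 120 kb type 5 stretch on chromosome 14 (105830001 to 105950000) with type 3 on both sides, an arrangement of 2.57% of type 5 stretches. For comparison, 32.7% of type 5 stretches lay between type 4 stretches. Its promoter (chr14:105896770-105897069, minus strand), shown because it stands apart from other promoters in type 5 and chosen after its value was seen, held 28 CG.
Spry2: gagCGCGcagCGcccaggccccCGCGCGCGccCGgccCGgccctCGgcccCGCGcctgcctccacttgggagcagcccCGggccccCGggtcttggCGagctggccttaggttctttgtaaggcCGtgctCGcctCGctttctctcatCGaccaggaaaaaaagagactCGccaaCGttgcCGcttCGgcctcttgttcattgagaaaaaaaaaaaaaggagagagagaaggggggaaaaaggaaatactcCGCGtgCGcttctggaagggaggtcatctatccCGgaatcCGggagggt
Of the promoters that start in type 5, 5.77% held as many, and their median was 2. Fgf10 with 10 CG and Fgf14 with 12 CG, the other members that start in type 5, were also above the upper quartile of 7.

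**Figure D3:**
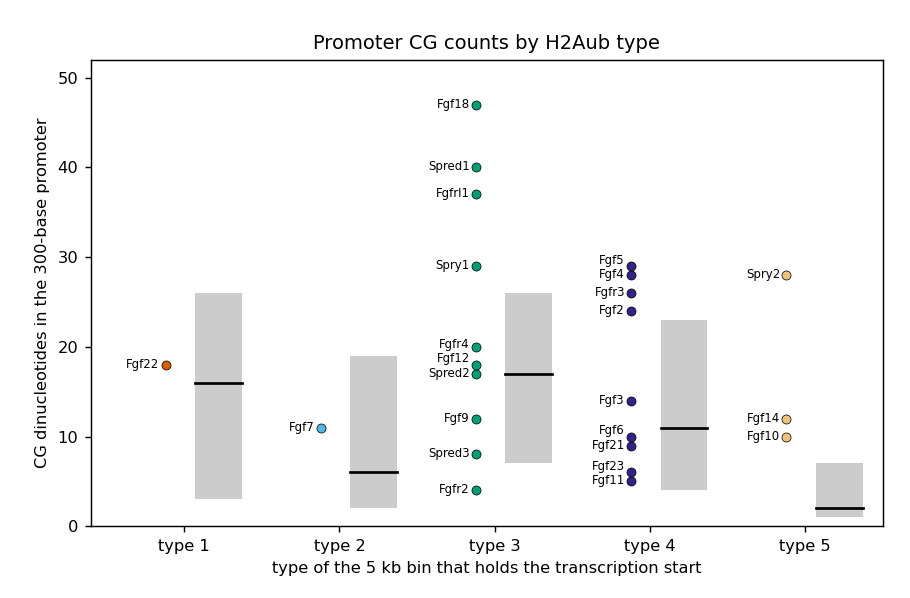
CG dinucleotides in the 300-base promoter, by the type of the bin that holds the first listed transcription start. Coloured points are the 24 members with a listed promoter, and grey boxes show the lower to upper quartile of all protein-coding genes with the median as a line. Spry2 (28) lies far above the type 5 box (1 to 7), and members starting in type 4 run from 5 to 29.

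By the bin of the transcription start, known for 24 members, 9 started in type 4 (37.5%, against 14.9% of the 16457 protein-coding genes with a listed start) and 10 in type 3 (41.7%, against 39.8%). Type 5 held 3 starts (12.5%, against 9.49%), type 1 held 1 (4.17%, against 32.2%) and type 2 held 1 (4.17%, against 3.6%). The start bin had another type than most of the body in 5 of 24 members (20.8%, against 15.9%): Fgf2, Fgf9, Fgf12, Spred1 and Spred2. Member promoters had a median of 17.5 CG, and those of all protein-coding genes 14. In type 4 the medians were 14 over 9 members and 11 over 2445 genes, and in type 3 they were 19 over 10 members and 17 over 6554 genes.

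**Figure D4:**
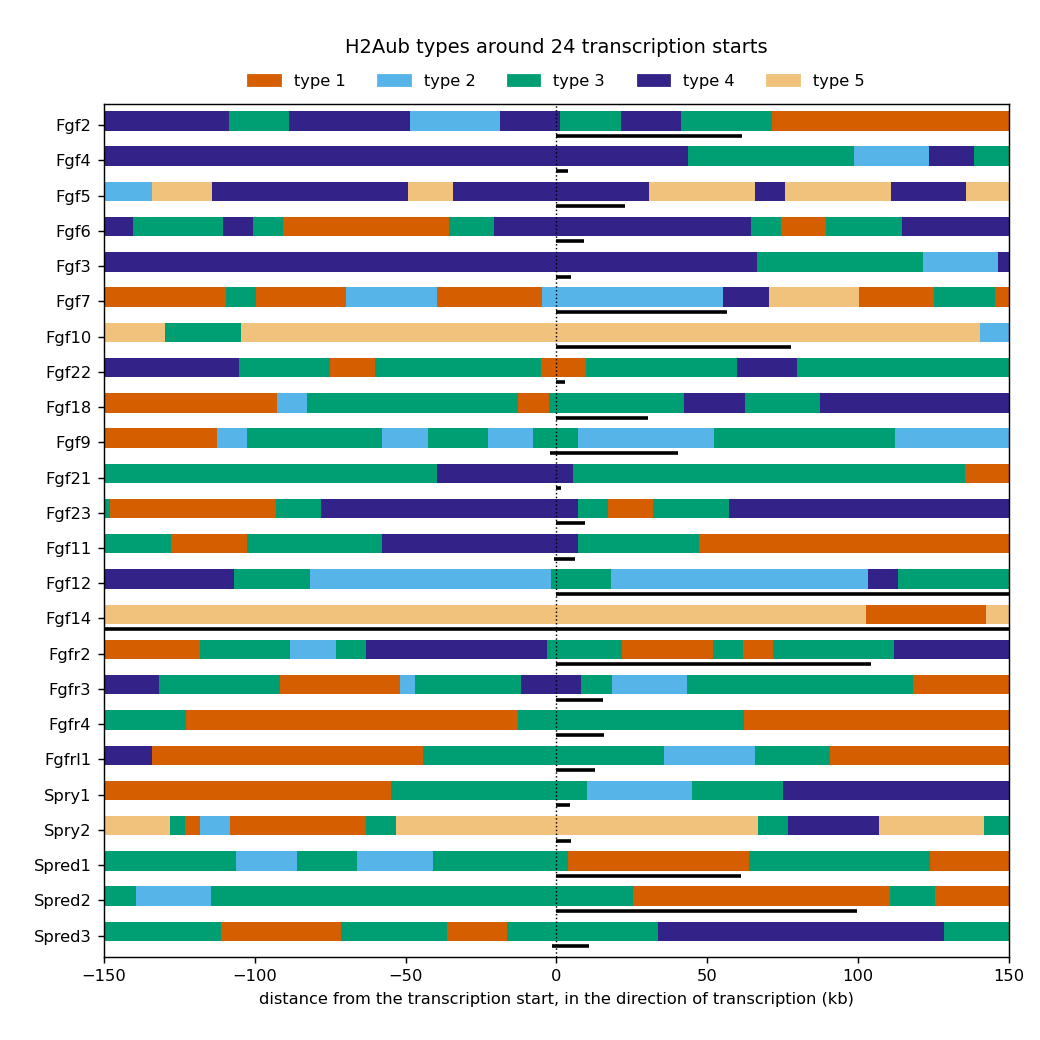
Types within 150 kb of the first listed start of 24 members, drawn in the direction of transcription, with the gene body as a black line under each strip. Fgf3 and Fgf4 sit in the long type 4 stretch they share, and in Spred1 and Spred2 the start is type 3 and the body downstream is type 1.

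The intracellular homologous factors, which bind voltage-gated sodium channels in neurons, included the 2 longest members. Fgf14 (703.2 kb, chromosome 14) was 85.8% type 5 and 14.2% type 1 over its window, and type 5 stretches of 690 and 30 kb overlapped its body. Fgf12 (595.5 kb, chromosome 16) was the most divided member, with 16 stretches of all 5 types along its body. Type 5 took 36.95% of the Fgf12 body, type 2 27.7%, type 3 14.0%, type 4 12.6% and type 1 8.77%.

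Fgf12 has 4 listed starts. The outermost lay in a 20 kb type 3 stretch. A pair of starts 188.3 and 188.7 kb further along the gene lay in a 35 kb type 4 stretch (28560001 to 28595000), and the innermost, at 307.2 kb, lay in a 10 kb type 4 stretch (28440001 to 28450000) with type 5 on both sides. The gene held 3 further type 4 stretches of 5 to 15 kb with no listed start. Of protein-coding genes with type 5 as the main type of the body and a listed start, 8.01% had any listed start in type 4. Of such members 1 of 4 did, Fgf12. The genes were not matched by length or by number of listed starts. The promoter of the start at 188.3 kb (chr16:28564902-28565201, minus strand), chosen after its value was seen as the Fgf12 promoter with the most CG, held 34.
Fgf12: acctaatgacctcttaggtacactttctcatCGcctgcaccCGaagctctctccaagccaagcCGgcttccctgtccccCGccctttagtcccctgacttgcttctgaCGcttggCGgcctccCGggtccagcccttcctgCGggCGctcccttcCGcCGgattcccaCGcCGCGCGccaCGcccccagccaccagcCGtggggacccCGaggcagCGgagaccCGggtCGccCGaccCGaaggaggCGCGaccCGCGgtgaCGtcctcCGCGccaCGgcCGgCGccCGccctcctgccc
The other inner starts had 29 and 22 CG, and the outermost start had 18.

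**Figure D5:**
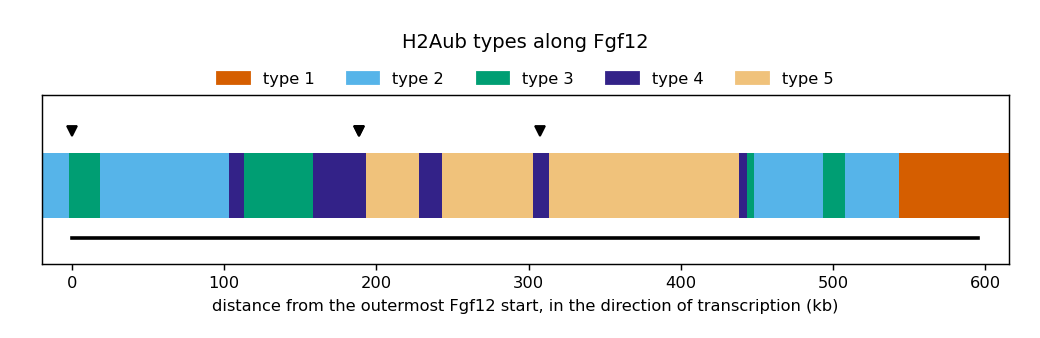
Types along Fgf12 with 20 kb on each side, by distance from the outermost start in the direction of transcription. The black line is the gene body and triangles mark the listed starts, those at 188.3 and 188.7 kb overlapping. The inner starts, at 188.3, 188.7 and 307.2 kb, lie in type 4, and the outermost lies in type 3.

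Other genes of the pathway were taken from 5 lists chosen by name, 41 of whose 44 genes reported here lie on chromosomes 1 to 19. Of these 41, 19 took type 3 (46.3%, against 35.3% of all protein-coding genes), 11 type 1 (26.8%, against 36.6%), 4 type 4 (9.76%, against 13.8%), 4 type 5 (9.76%, against 9.62%) and 3 type 2 (7.32%, against 4.6%). The Ras to Erk cascade, which relays the signal inside the cell, had 3 of the 6 genes reported in type 1 (Braf, Map2k1 and Nras), 3 in type 3 (Hras, Map2k2 and Mapk3) and 0 in type 4. The adaptors and phosphatase had 6 of 10 in type 1 (Cbl, Frs2, Grb2, Ptpn11, Shc1 and Sos2), with Plcg1 in type 3, Sos1 in type 5, and Gab1 and Frs3 in type 4. By most of the window, type 1 held 36.6% of all protein-coding genes. It held 50.0% of these cascade genes, 60.0% of the adaptor and phosphatase genes and 0 of the 17 secreted ligands. The body and start of the ligand Fgf22 did, however, lie in type 1. These differences were not tested.

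Erk targets and phosphatases lay in type 3 in 6 of 8 cases, a type that held 35.3% of all protein-coding genes: Dusp4, Dusp5, Dusp6, Egr1, Etv4 and Etv5. Fos was 85.9% type 4 and Etv1 wholly type 5. Of 8 coreceptors and binding proteins, 4 were type 3 (50.0%; Fgfbp1, Flrt1, Il17rd and Klb), 2 type 5 (Fgfbp3 and Flrt2), 1 type 1 (Flrt3) and 1 type 2 (Kl). Klb, the coreceptor for Fgf15 and Fgf21, was 57.3% type 3, and Kl, the coreceptor for Fgf23, was 60.1% type 2, while the windows of the 3 hormones were mostly type 4. Of 9 heparan sulphate genes on these chromosomes, 5 were type 3 (55.6%; Gpc1, Hs6st1, Ndst1, Ndst2 and Sulf1), 2 type 2 (Ext1 and Ext2), and 1 type 1 (Hs2st1). Sulf2 was called type 4 with 41.62% of its window, against 41.06% in type 3, which also covered most of its body.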

How the data were processed

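The study holds 29 mouse CUT&RUN libraries of 16 groups by the titles of the labels. The submitters' processing notes name deepTools 3.0.2, Picard 2.8.0, Bowtie2 2.3.4.3 and Trim Galore 0.4.5 and the mm10 build. The authors deposited 1 file for the series, which by its own name holds ChromHMM types of H2Aub: 31563 segments with a type label from 1 to 5, a category of no unit. ChromHMM learns recurring states from signal tracks by a hidden Markov model. Its version, its settings and its input libraries are not stated in the labels or the file.

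All borders fell on multiples of 5 kb. Over 492539 bins of 5 kb, 261 held 2 segments, and the shorter was used. Genes came from a RefSeq table of GRCm38.p6, the build of mm10. 107 protein-coding genes placed on separate scaffolds were left out. Starts and strand came from a RefSeq promoter table, which matched 24 of 31 members, and the first listed start was used where there were several. Shares were computed with Python 3.11.15, numpy 2.4.6 and pandas 2.3.3, tested on simulated segments. Every member was named, as were the genes of the 5 pathway lists, except some that are not reported here and enter no count of a list. Promoters printed were those of the member with the largest share in each type and of Fgf4, Fgfr2 and Fgf8, where the table holds them, ties going to the first symbol in the alphabet. Those of Spry2 and Fgf12 were added after their values were seen. The members and lists were chosen with earlier results of these data known. No statistical test was made.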

Additional observations from a re-analysis of the deposited data

How the results depend on the processing

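The type of a member was recomputed from the gene body alone, with 5 or 50 kb on each side, from the bin of the middle of the body or of the start, with the longer segment in overlaps, and without segments under 25 kb. Across the 6 of these that give every member a type, 24 of 31 kept it, and 22 also kept it by their start where one is listed. Most changes came with 50 kb, where Spred1, Fgfr3, Fgf21, Fgfr2 and Fgf9 took another type, and with the start, where Spred1, Fgf2, Fgf22, Spred2, Fgf9 and Fgf12 did. Fgf22 also changed by the body, with 5 kb and by the middle, Fgf2 by the middle, and Fgfr3 without short segments. Type 1 held 1 member by the start, and type 2 held 1 member by the start and 1 with 50 kb. At least 90% of the window lay in 1 type for 10 members, of which type 3 held 5, type 4 held 3, type 5 held 2, and types 1 and 2 held 0. With members within 100 kb of each other counted once, 28 were counted and type 4 held 6.

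Shares of the summed windows depended on Fgf12 and Fgf14, the members over 500 kb. Over the summed windows of all protein-coding genes type 5 took 11.6%, type 3 30.3% and type 4 14.1%. Type 5 took 30.7% of the summed member windows, 42.9% without flanks, 38.5% with 5 kb and 24.2% with 50 kb. It took 9.01% over members under 500 kb and 11.2% with equal weight for each member, both settings chosen after seeing the data. Type 3 took 29.5%, and in the same order 21.2%, 24.5%, 33.5%, 45.5% and 43.4%. Type 4 took 14.3%, with 7.76% without flanks, 10.3% with 5 kb, 20.4% under 500 kb, 24.4% with equal weight and 11.7% without segments under 25 kb. Because no library has a value and the types have no level, depth and replicate error could not be assessed. No paired analysis was possible because no library has a value in the segmentation.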
